A study of Mus musculus with 22 samples.

Results

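Microglia from Trem2 knockout mice (KO) and from wild-type mice (WT) were compared over every diet of a feeding study, as all 11 KO arrays against all 11 WT arrays, which is 22 of 22 arrays in the series. The arrays were chosen by genotype alone, from the titles. The aim of the comparison was to tell genes that separate the genotypes on every diet from genes that differ only during demyelination. The KO groups were KO control on normal chow (2 arrays), KO cuprizone (3 arrays), and KO set A and KO set B (3 arrays each), which both had Covi-Ox in the feed. The WT groups were WT control on normal chow (2 arrays), WT cuprizone, WT Covi-Ox and WT both (3 arrays each). Cuprizone was 0.2% of the feed, and Covi-Ox, a mixed tocopherol preparation, was 0.1% with 1100 IU/g of alpha tocopherol added. The supplemented diets ran for 4 weeks, after a lead-in of 2 weeks on chow (cuprizone) or on Covi-Ox (both additives). KO mice are given as Trem2(-/-). The labels used here state no allele, strain, sex or age, nor whether replicates were separate animals, so p-values measure the spread between samples, which may be technical.

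The diet labels of the 6 KO arrays with Covi-Ox contradict each other. Set A has both additives in the title and Covi-Ox alone in the other fields, and set B has the reverse. The mean of the 4 KO groups minus the mean of the 4 WT groups is the same under either reading, as is the Covi-Ox comparison, in which sets A and B together were set against WT Covi-Ox and WT both together.

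Trem2 is a receptor of microglia and other myeloid cells that binds lipids, lipoproteins and cell debris and signals through the adaptor Tyrobp (DAP12) and the kinase Syk. Cuprizone kills oligodendrocytes, and microglia that take up the myelin debris switch on a programme known as disease-associated microglia (DAM), whose late genes are known to need Trem2. Genes that differ between a knockout and a wild-type colony can also include genes that lie close to the targeted locus and genes that differ between mouse substrains.

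Cells had been sorted as positive for CD11b, CD45 and F4/80. All 9 measured microglial markers were high in both genotypes, from 997 (Sall1) to 5826 (Cx3cr1) in KO arrays and from 954 (Sall1) to 5370 (Cx3cr1) in WT arrays, in units of deposited intensity. Array medians ran from 36.1 to 38.6, and a level near or below them is not exact. On 3 arrays the mean of 27 immediate-early genes was low on the log2 scale: 8.58 on KO cuprizone 2, 8.64 on KO cuprizone 3 and 8.28 on WT cuprizone 3, against 9.55 to 9.82 on the other 19. KO control 2 stood apart on the third principal component, at 31.5 against -13.8 to 5.50 elsewhere. The mean of 3 Y-linked genes was 6.21 and 6.11 in KO control, against 6.53 to 7.09 on the other arrays. The part of these differences in the results was not tested beyond leaving arrays out or adding the Y-linked mean to the model.

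In 18 genes the 11 KO arrays and the 11 WT arrays did not overlap, so that genotype could be read from the gene whatever the diet. These were 0.152% of the 11830 genes tested. Of the 18, 7 were higher in KO (0.0592% of genes: Rasgrf2, Glo1, Nnt, Csmd3, Camk2b, Tnfrsf21 and St3gal5) and 11 were lower (0.093%: G530011O06Rik, Trem2, Mid1, Lrmda, Sulf2, Enpp5, Slamf8, Ide, Mt1, Mpp6 and Pcbp2). All 18 were also called in the comparison averaged over the diets (limma, Benjamini-Hochberg adjusted p under 0.05), where 754 genes, or 6.37%, were called. The lack of overlap and the averaged test rest on the same arrays, so one does not add to the other.

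**Figure D1:**
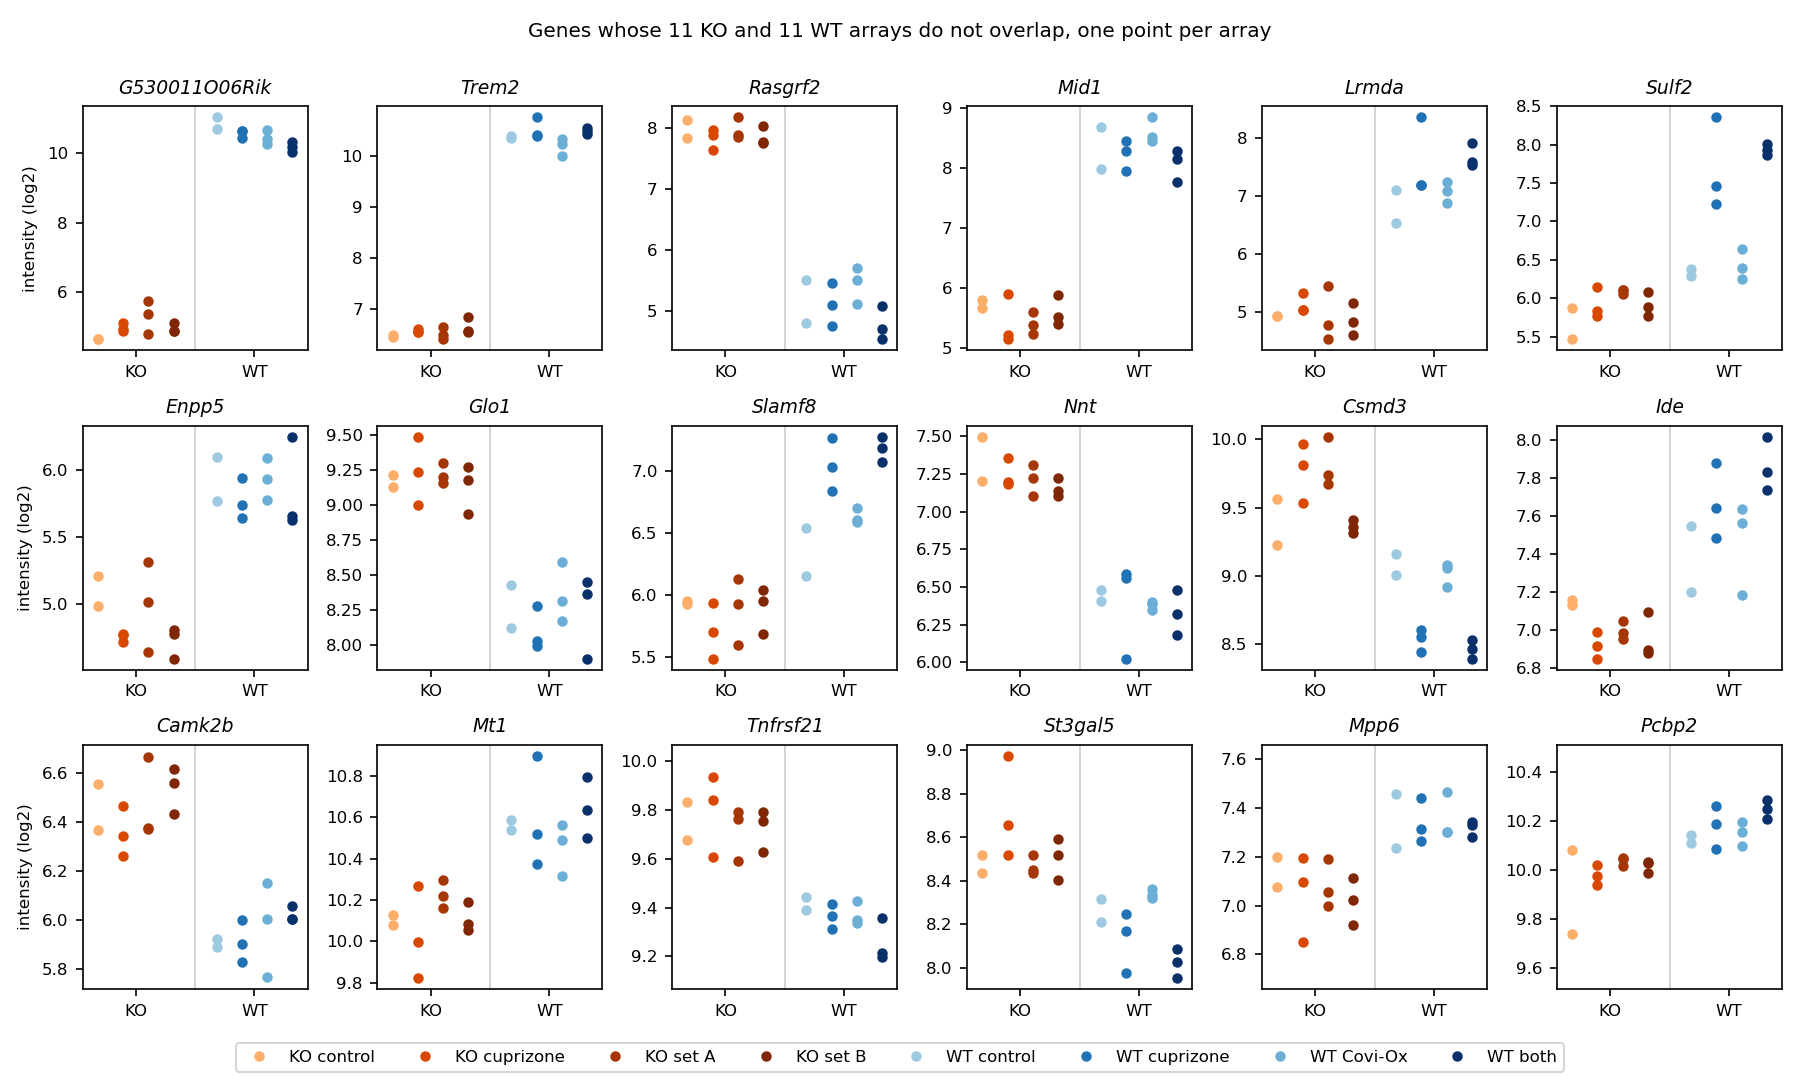
Intensity (log2, vertical axis) of the 18 genes without overlap, with KO arrays on the left and WT arrays on the right of each panel and one point per array, coloured by group. The gap is over 3 log2 units in G530011O06Rik and Trem2 and almost closed in Pcbp2; in Sulf2 and Slamf8 the WT arrays given cuprizone stand highest, and in Csmd3 they stand lowest.

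Trem2, the targeted gene, had intensities of 84.5 to 114 (median 92.9) in the 11 KO arrays, against 1022 to 1724 (median 1336) in the 11 WT arrays. It was 14.3-fold lower in KO, with a difference of -3.84 ± 0.06 (log2, SE, adjusted p = 5.57e-20). The highest KO array lay 3.17 log2 units below the lowest WT array, and the library labels of both genotypes fit this gene on all 22 arrays. Which exons its probes cover is unknown here, so the signal left in KO says nothing of transcript. The difference hardly moved with diet: -3.89 on chow, -3.96 on cuprizone and -3.76 over the Covi-Ox diets.

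A pair of neighbouring loci on the X chromosome also had large differences. G530011O06Rik, an X-linked locus known only by a clone name, had 25.2 to 54.3 (median 29.9) in KO and 1048 to 2086 (median 1370) in WT, a difference of -5.52 ± 0.09 (adjusted p = 7.30e-20). Mid1, a microtubule-associated ubiquitin ligase, had 35.5 to 60.02 (median 45.8) in KO and 218 to 462 (median 312) in WT, a difference of -2.77 ± 0.11 (adjusted p = 9.07e-13). In RefSeq's order Mid1 is the tested gene next to G530011O06Rik, and Mid1 is known to straddle the boundary of the pseudoautosomal region in common laboratory mice. Both were near the array medians in KO and well above them in WT. The next tested genes, Hccs (0.06, adjusted p = 0.632) and Msl3 (-0.16, adjusted p = 0.258), were not called.

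Rasgrf2, an exchange factor that activates Ras and Rac, was the gene with the largest rise. It had 201 to 290 (median 236) in KO, against 23.3 to 52.5 (median 34.6) in WT, a difference of 2.79 ± 0.11 (6.91-fold, adjusted p = 4.50e-13). The WT median of Rasgrf2 lay below the array medians, so this fold is not exact. Lrmda, a leucine-rich repeat gene tied to pigmentation in humans, had 23.1 to 43.7 (median 30.5) in KO and 92.3 to 329 (median 147) in WT, a difference of -2.33 ± 0.14 (adjusted p = 6.82e-10). The KO median of Lrmda lay below the array medians, so the size of its difference is not exact either. WT cuprizone 3, the array with 329, was the highest for Lrmda, and the other WT arrays ended at 243. Nnt, the mitochondrial transhydrogenase that makes NADPH, had 138 to 181 (median 147) in KO and 65.0 to 95.8 (median 84.3) in WT, a difference of 0.86 ± 0.07 (adjusted p = 5.69e-08). Nnt is known to carry a deletion in the C57BL/6J substrain.

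These 6 genes were the ones called with the same sign on chow, on cuprizone and over the Covi-Ox diets (0.0507% of genes tested), and they were also called in each KO set against each of WT Covi-Ox and WT both. On chow, Rasgrf2 had 282 and 230 in KO control and 45.5 and 28.0 in WT control (2.84 ± 0.25, adjusted p = 1.55e-06). Lrmda had 30.3 and 30.5 in KO control, against 138 and 92.3 in WT control (-1.89 ± 0.32, adjusted p = 0.0224). Nnt had 147 and 181 in KO control, against 84.8 and 89.2 in WT control (0.91 ± 0.16, adjusted p = 0.0226). For Trem2, Mid1, Rasgrf2 and G530011O06Rik the chow call held in each of 33 alternatives. The chow call of Lrmda was lost with array weights, at adjusted p under 0.01, with only the arrays compared, and without WT control 1 or KO control 2 (adjusted p from 0.000807 to 0.336 over its alternatives), and that of Nnt was lost in the same 5 alternatives and without WT control 2 (0.00139 to 0.828). The change of the genotype difference under cuprizone was within its error in Trem2 (-0.07 ± 0.18), Rasgrf2 (-0.12 ± 0.32), Mid1 (-0.21 ± 0.34) and Nnt (-0.05 ± 0.20), and it was -0.56 ± 0.42 in Lrmda and 0.63 ± 0.27 in G530011O06Rik, with adjusted p from 0.426 to 0.960 over the 6. With 2 arrays per genotype on chow, an interval of this kind leaves room for a moderate dependence on diet.

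Of the other 12 genes without overlap, 1 (Csmd3) had a dependence on cuprizone that was called. Glo1, glyoxalase 1, which detoxifies methylglyoxal and is known to be duplicated in some inbred mouse strains, had 491 to 718 in KO and 240 to 386 in WT (0.94 ± 0.08, adjusted p = 2.13e-07). Its difference was 0.90 on chow, 1.14 on cuprizone and 0.87 over the Covi-Ox diets, but it was not called on chow (adjusted p = 0.117). Another probe set of Glo1 also differed by 0.94, but its KO and WT arrays overlapped. Enpp5, of the ectonucleotide phosphodiesterase family, had 24.1 to 39.7 in KO and 49.4 to 75.9 in WT (-0.98 ± 0.09, adjusted p = 3.95e-07), with -0.84, -1.02 and -1.03 on the 3 kinds of diet. Tnfrsf21, death receptor 6, had 772 to 977 in KO and 588 to 697 in WT, and Camk2b, a calcium-dependent kinase subunit, had 76.8 to 101 in KO and 54.4 to 71.0 in WT. Both were even across diets, with differences of 0.34 to 0.43 for Tnfrsf21 and 0.45 to 0.56 for Camk2b.

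Sulf2, Slamf8, Ide and Csmd3 separated the genotypes on every diet and yet widened with cuprizone in their values. Sulf2, which trims sulfate from heparan sulfate outside the cell, had 58.7 and 44.2 in KO control and 70.7, 56.9 and 54.5 in KO cuprizone, against 78.6 and 83.1 in WT control and 150, 177 and 328 in WT cuprizone. Its difference was -0.67 ± 0.24 on chow (adjusted p = 0.348) and -1.77 ± 0.20 on cuprizone (adjusted p = 1.57e-05), and the change between them was not called (-1.10 ± 0.32, adjusted p = 0.222). Slamf8, a SLAM-family receptor of myeloid cells, had a difference of -0.41 on chow and -1.34 on cuprizone, and Ide, the insulin-degrading enzyme, had -0.23 and -0.75. The change was not called for Slamf8 (adjusted p = 0.146) or Ide (adjusted p = 0.383). Csmd3, which encodes a large membrane protein with CUB and sushi domains, had 757 and 601 in KO control and 740, 900 and 1000 in KO cuprizone, against 574 and 514 in WT control and 348, 376 and 389 in WT cuprizone. It was the one gene of the 18 for which the dependence on cuprizone was itself called (0.92 ± 0.19, adjusted p = 0.0448). All 7 probe sets of Csmd3 were higher in KO, by 0.70 to 0.97, and 3 of them had no overlap.

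At the lower end the separation was thin. Mt1, a metallothionein that binds zinc and copper, had 905 to 1259 in KO and 1273 to 1905 in WT (-0.45 ± 0.07), with a gap of 0.02 log2 units between the nearest arrays. St3gal5, the enzyme that makes the ganglioside GM3, had 339 to 502 in KO and 248 to 329 in WT (0.35 ± 0.06, gap 0.04). Mpp6, a membrane scaffold protein, differed by -0.27 ± 0.06 (gap 0.04), and its second probe set by -0.08. Pcbp2, an RNA-binding protein, differed by -0.19 ± 0.05, with a gap of 0.003 between 1084 in the highest KO array and 1086 in the lowest WT array. Of the 18 genes, 6 were called on chow (0.0676% of all genes were called there), 16 on cuprizone (3.8%) and 17 over the Covi-Ox diets (2.48%), and all 18 had the same sign on chow. The arrays of each diet took part in choosing the 18, so these counts describe them and test nothing.

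**Figure D2:**
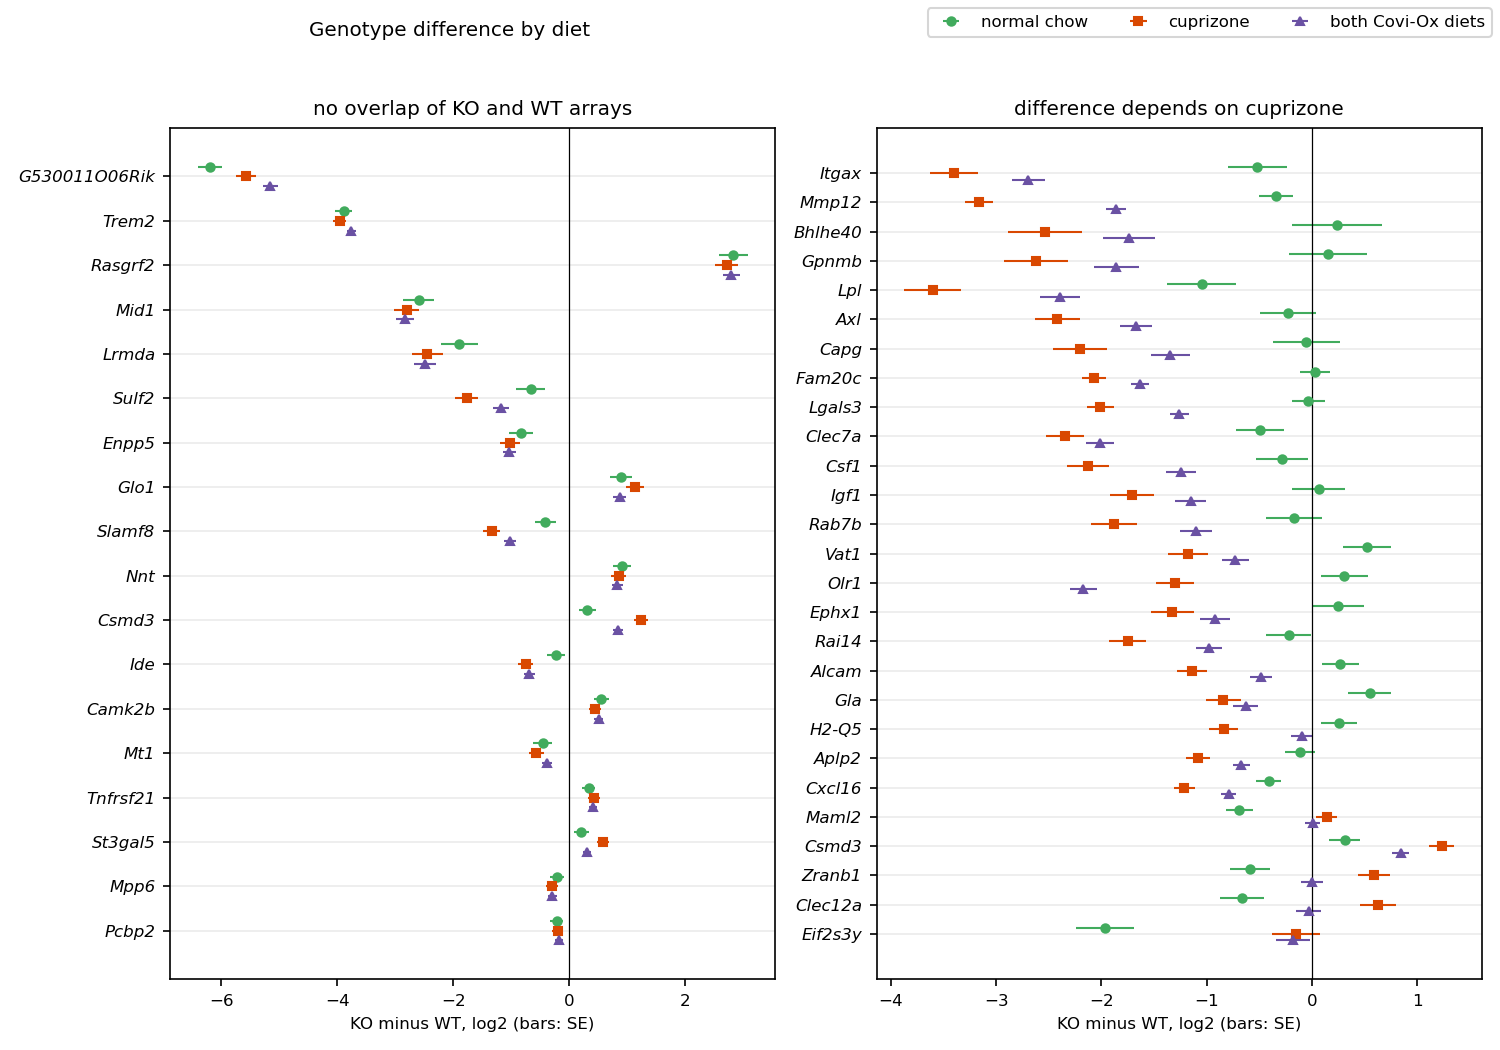
KO minus WT (log2, horizontal axis) on normal chow, on cuprizone and over both Covi-Ox diets for the 18 genes without overlap (left) and the 27 genes whose genotype difference depended on cuprizone (right). Points are differences of group means and bars are SE; in the left panel the 3 symbols lie on one side of 0 in all 18 genes, and in the right panel none of the 22 genes called lower was called on chow.

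The genes whose genotype difference depended on cuprizone were then taken. A difference of differences, KO minus WT on cuprizone less KO minus WT on chow, was called in 27 genes (0.228%), 22 more negative (0.186%) and 5 more positive (0.0423%), and Csmd3 was the one gene that they shared with the 18. The 22 hold the known Trem2-dependent late DAM genes Itgax (CD11c), Gpnmb, Lpl, Axl, Clec7a, Igf1, Csf1, Lgals3, Mmp12 and Capg, with Cxcl16, Fam20c, Bhlhe40, Olr1, Gla, Rab7b, Rai14, Aplp2, Alcam, Ephx1, Vat1 and H2-Q5. All 22 were called lower on cuprizone (2.98% of all genes), 21 of them also over the Covi-Ox diets (1.84%), and 0 on chow (0.0507%). On chow 8 genes were called at all with limma, 2 of them higher (0.0169%), and 1244 (10.5%) passed an unadjusted p of 0.05.

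In these genes the range over all KO arrays together overlapped the range of the WT arrays without cuprizone, though not on each diet taken alone. Mmp12, a macrophage elastase, had 21.3 to 32.2 over all 11 KO arrays, against 29.6 to 35.5 in the 5 WT arrays without cuprizone and 243 to 342 in the 6 WT arrays with it. Its KO range and its WT range without cuprizone both lay below the array medians, where levels are not exact. Mmp12 passed the filter on low values only through the WT arrays given cuprizone. Lgals3, galectin 3, had 56.4 to 92.1 in KO, against 74.5 to 99.6 in WT without cuprizone and 307 to 403 in WT with it. Fam20c, a secretory-pathway kinase, had 27.5 to 51.2 in KO, against 30.8 to 50.4 and 164 to 249 in WT without and with cuprizone. In these 3 genes the KO range overlapped the WT range without cuprizone and lay below the WT range with it. In 21 of the 22 genes every KO array was lower than any WT array given cuprizone, and in 22 of 22 the KO range overlapped that of the WT arrays without it. The gene left out of the 21 was H2-Q5, a class I gene whose probes can also read its close paralogs. Chow and cuprizone arrays of both genotypes took part in choosing the 22. The share of all genes with either pattern was not counted, so these counts describe the 22 and test nothing.

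Csf1, the microglial growth factor, showed the same pattern with a wider KO range. It had 120 to 454 in KO, against 173 to 357 in WT without cuprizone and 757 to 1101 in WT with it. Bhlhe40, a transcription factor, had 9.82 to 22.7 in KO and 12.4 to 14.4 in WT without cuprizone, both below the array medians, against 44.6 to 214 in WT with it. Olr1, a scavenger receptor for oxidized lipoprotein, had 14.9 to 23.7 in KO, against 15.3 to 26.3 and 39.8 to 302 in WT without and with cuprizone. Its KO values and its WT values without cuprizone were below the array medians too. Bhlhe40 and Olr1 passed the filter only through WT arrays given cuprizone, so their overlap with the other WT arrays is one of levels that are not exact. Folds of genes whose KO level is below the array median are not exact.

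The means of sets A and B did not enter the difference of differences, though their spread entered its error. With only the arrays compared, 4 genes were called in place of 27. Both sets were then compared with the WT groups fed Covi-Ox. Against WT both, 21 of the 22 genes were called lower in set A (5.6% of all genes were called lower) and 21 in set B (2.62%). Against WT Covi-Ox, 2 of the 22 were called lower in set A (0.093%), namely Clec7a (-1.08, adjusted p = 0.0125) and Fam20c (-0.62, adjusted p = 0.0279), and 0 in set B (0.118%). The comparisons of sets A and B share their WT arrays. Of the 18 genes without overlap, 9 were called against both WT groups in each set (0.0845% of all genes), namely Enpp5, G530011O06Rik, Glo1, Lrmda, Mid1, Nnt, Rasgrf2, Slamf8 and Trem2. These arrays took part in choosing the 18 by their values, and the 22 through the shared spread, so the counts of the classes are not compared. Rasgrf2, for example, differed by 3.19 and 3.07 against WT both in sets A and B, and by 2.53 and 2.41 against WT Covi-Ox. Itgax differed by -4.90 and -4.28 against WT both and by -1.10 and -0.49 against WT Covi-Ox.

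The 5 genes whose difference became more positive were mixed. Eif2s3y, a Y-linked translation factor gene, had 60.1 and 72.4 in KO control and 213, 97.96 and 196 in KO cuprizone, against 257 and 258 in WT control and 142, 193 and 203 in WT cuprizone. The KO control arrays were the lowest of all 22. Eif2s3y is one of the 3 genes of the Y-linked mean given above. Clec12a, an inhibitory lectin receptor, had 75.4 and 61.4 in KO control and 116, 142 and 112 in KO cuprizone, against 95.9 and 121 in WT control and 85.0, 72.9 and 79.8 in WT cuprizone. Zranb1, a deubiquitinase, and Maml2, a Notch coactivator, differed by -0.59 and -0.69 on chow and by 0.59 and 0.14 on cuprizone. Eif2s3y and Maml2 were called lower on chow (adjusted p = 0.00190 and 0.0365), and Csmd3, Clec12a and Zranb1 higher on cuprizone (adjusted p = 2.08e-06, 0.0416 and 0.0347).

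The size of this group rests on few arrays. The count of 27 became 7 if KO control 2 was left out, 14 for KO cuprizone 2, 15 for KO cuprizone 3, 6 for WT control 1 and 8 for WT control 2. Without KO control 1, which leaves KO control 2 alone and assumed to vary like the other groups, it was 265, while the chow count of 8 became 701 without KO control 1 and 5 without KO control 2. The Covi-Ox arrays were also added as given cuprizone or not. The count was then 851 (7.19%) with the sets read by title and 165 (1.39%) by the other fields. Of the 27 genes, 24 were called with the same sign in both readings.

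**Figure D3:**
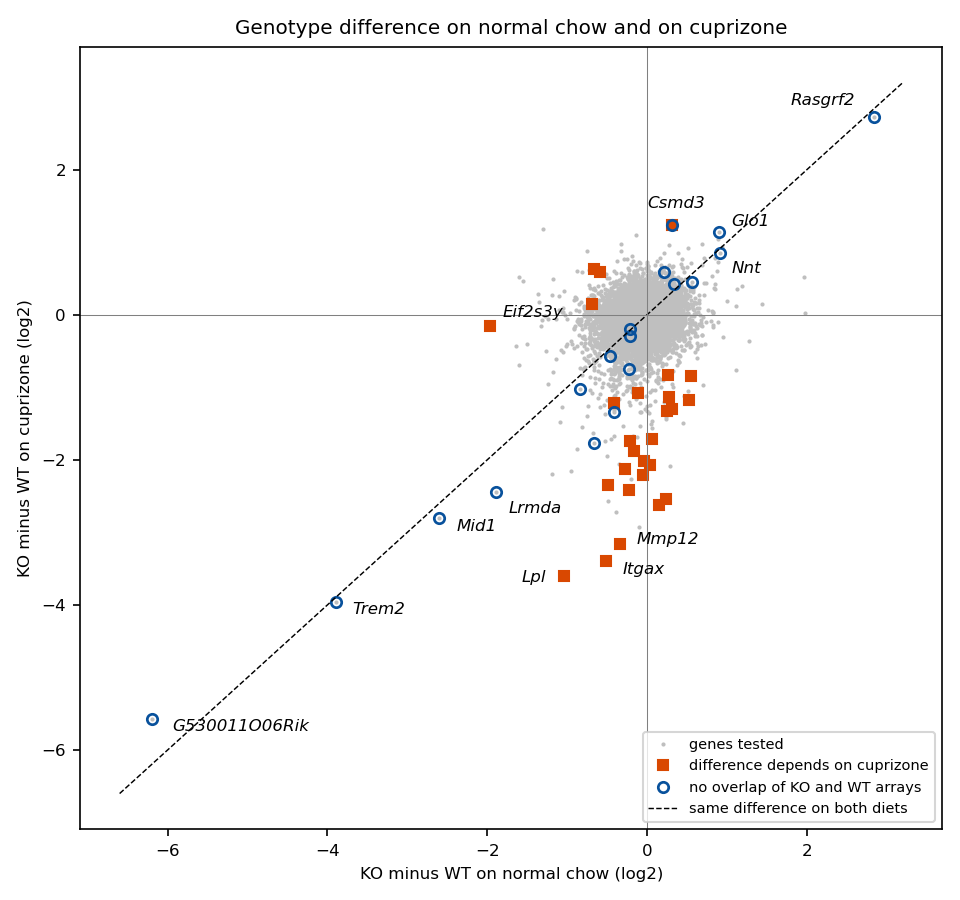
KO minus WT on normal chow (horizontal axis) against KO minus WT on cuprizone (vertical axis), both log2, for the 11830 genes tested (grey). Among the genes without overlap (blue circles), Trem2, Rasgrf2, Mid1 and Nnt lie near the dashed line of equal difference and Sulf2, Slamf8 and Csmd3 lie off it, while the genes whose difference depended on cuprizone (orange squares) lie mostly below it and near 0 on chow; Csmd3 carries both symbols.

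The promoters of 2 genes of each class are printed to show what these loci look like where transcription starts. They are 300-base windows of RefSeq annotation on GRCm38.p6, from 250 bases before to 50 after the start, with a searched motif in capitals. Itgax (chr7:128129300-128129599, plus strand) and Gpnmb (chr6:49036268-49036567, plus strand) were chosen from the diet-dependent class for their AP-1 letters TGANTCA. Rasgrf2 (chr13:92131779-92132078, minus strand) and Lrmda (chr14:22019462-22019761, plus strand) were chosen from the class without overlap for their E-box letters CACGTG.
Itgax: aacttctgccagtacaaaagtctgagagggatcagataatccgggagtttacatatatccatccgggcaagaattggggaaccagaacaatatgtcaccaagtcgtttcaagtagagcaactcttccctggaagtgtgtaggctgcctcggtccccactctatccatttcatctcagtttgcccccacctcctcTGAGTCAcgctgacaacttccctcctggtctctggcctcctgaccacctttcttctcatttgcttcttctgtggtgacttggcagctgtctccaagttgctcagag
Gpnmb: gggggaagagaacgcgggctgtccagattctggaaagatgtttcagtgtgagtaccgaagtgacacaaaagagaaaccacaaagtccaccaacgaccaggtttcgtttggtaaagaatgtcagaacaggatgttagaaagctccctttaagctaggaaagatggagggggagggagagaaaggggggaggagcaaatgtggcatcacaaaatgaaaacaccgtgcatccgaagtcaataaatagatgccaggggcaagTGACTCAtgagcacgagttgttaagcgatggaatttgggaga
Rasgrf2: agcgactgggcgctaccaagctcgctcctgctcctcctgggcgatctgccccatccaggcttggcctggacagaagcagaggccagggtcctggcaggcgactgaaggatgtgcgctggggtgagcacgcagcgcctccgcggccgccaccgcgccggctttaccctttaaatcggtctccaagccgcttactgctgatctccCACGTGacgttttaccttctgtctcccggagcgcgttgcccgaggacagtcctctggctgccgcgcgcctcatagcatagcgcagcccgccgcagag
Lrmda: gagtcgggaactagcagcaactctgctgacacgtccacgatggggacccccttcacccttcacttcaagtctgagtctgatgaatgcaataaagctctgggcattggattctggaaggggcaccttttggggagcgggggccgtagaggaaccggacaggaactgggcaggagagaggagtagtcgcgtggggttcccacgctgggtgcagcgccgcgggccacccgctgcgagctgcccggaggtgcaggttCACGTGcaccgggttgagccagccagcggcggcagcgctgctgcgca

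The AP-1 letters, which read the same on both strands, stood in 4 of the 17 diet-dependent lower genes with a RefSeq window (23.5%: Itgax, Gpnmb, Igf1 and Olr1), in 2 of the 15 genes without overlap (13.3%: Trem2 and Slamf8), and in 5.05% of the 9470 tested genes with a window. The E-box letters stood in 1 of the 17 (5.88%: Gla), in 4 of the 15 (26.7%: Lrmda, Rasgrf2, Slamf8 and Tnfrsf21) and in 10.2% of all windows. The PU.1 letters GAGGAAGT, on either strand, stood in 2 of the 17 (11.8%: Gla and Mmp12), in 0 of the 15 and in 3.16% of all windows. No match overlapped a match of another motif in these genes. In TGANTCA the N stands for any base. The matches in Igf1 and Trem2 read TGAATCA, and those in Itgax, Gpnmb, Olr1 and Slamf8 read TGAGTCA or TGACTCA. These are counts of letters in a short window, not sites, and no test was run on them.

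Over all diets together 754 genes were called, 199 higher in KO (1.68%) and 555 lower (4.69%). The split between directions depends on scaling, with 26.4% of calls higher in KO as deposited, 9.88% after centring each array on its median (941 calls) and 38% after quantile normalization (639 calls). The count was 1347 without KO control 1, 492 without KO control 2, 439 without WT control 2, and 170 with the Y-linked mean in the model.

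Late DAM genes fell together: 19 of 23 tested members were called lower (4.69% of all genes) and 0 higher. Their median was -1.14, against -0.01 over all genes tested. Lpl, lipoprotein lipase, had 25.4 to 63.1 in KO and 50.5 to 1046 in WT (-2.36 ± 0.14, adjusted p = 6.82e-10). Itgax had 20.4 to 45.4 in KO and 42.4 to 743 in WT (-2.33 ± 0.12, adjusted p = 5.78e-11). Cst7, a cystatin of phagocytic microglia, had 55.6 to 450 in KO and 73.2 to 3455 in WT (-1.75 ± 0.19, adjusted p = 5.17e-06). None of these 3 separated the genotypes on all arrays. The median of the list was -0.19 on chow, where 0 members were called. It was -2.01 on cuprizone (16 called lower, against 2.98% of all genes) and -1.24 over the Covi-Ox diets (17 called lower, against 1.84%). In the difference of differences 10 members were called lower (0.186% of all genes). The count over all diets was 19 without the 3 arrays low in immediate-early genes, 18 without KO control 2, and 16 with the Y-linked mean in the model.

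Early DAM genes, which are known to rise before Trem2 is needed, had medians near each other on the 3 kinds of diet. Of 9 tested members 6 were called lower (4.69% of all genes), and 0 were called in the difference of differences. Their medians were -0.17 on chow, -0.18 on cuprizone and -0.21 over the Covi-Ox diets. Apoe, the main lipid carrier of the brain, had 2790 to 4871 in KO and 4018 to 7302 in WT (-0.47 ± 0.07, adjusted p = 0.000228). Cstb, cystatin B, differed by -0.64 ± 0.08, Lyz2, lysozyme, by -0.34 ± 0.07, and Ctsb, cathepsin B, by -0.23 ± 0.05 (adjusted p = 4.78e-05, 0.00604 and 0.00755). Apoe differed by -0.25 on chow and -0.66 on cuprizone, and Cstb by -0.30 and -1.09. Lyz2 was lowest on chow (-0.54, adjusted p = 0.297) and closer to 0 on cuprizone (-0.18, adjusted p = 0.489). With the Y-linked mean in the model 1 of the 9 was called.

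Homeostatic genes went the other way by small amounts, with a median of 0.16. Of 23 tested members 12 were called higher (1.68% of all genes) and 0 lower (4.69%). P2ry12, the purinergic receptor that guides microglial processes, had 3250 to 3713 in KO and 2541 to 3544 in WT (0.20 ± 0.04, adjusted p = 0.00660). Tmem119 had 2970 to 3931 in KO and 2065 to 3418 in WT (0.28 ± 0.05, adjusted p = 0.000833). Upk1b (0.51 ± 0.09), the fructose transporter Slc2a5 (0.47 ± 0.10), the receptor Gpr34 (0.36 ± 0.05) and Ecscr (0.29 ± 0.07) were the members with the largest differences, and Cx3cr1, the fractalkine receptor, was called at 0.16 ± 0.05 (adjusted p = 0.0401). The median was 0.03 on chow, 0.24 on cuprizone and 0.19 over the Covi-Ox diets, with 0 called on chow and 0 in the difference of differences. Without the 3 low arrays 7 members were called, and with the Y-linked mean 3. In sorted bulk cells, fewer cells in a state and less RNA of a gene per cell cannot be told apart.

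Glycolysis and hypoxia genes were lower on each kind of diet in their medians, at -0.25 on chow, -0.68 on cuprizone and -0.39 over the Covi-Ox diets. Over all diets 12 of 16 tested members were called lower (4.69% of all genes) and 0 higher, with a median of -0.41. Pgk1, phosphoglycerate kinase, had 187 to 337 in KO and 267 to 901 in WT (-0.73 ± 0.10, adjusted p = 5.41e-05). Tpi1, triosephosphate isomerase, had 142 to 297 in KO and 214 to 541 in WT (-0.67 ± 0.07, adjusted p = 3.35e-06). Vegfa, the vascular growth factor, and Slc2a1, the glucose transporter GLUT1, differed by -0.67 ± 0.10 and -0.52 ± 0.07 (adjusted p = 0.000201 and 4.78e-05). None of the list was called on chow or in the difference of differences. On cuprizone 9 were called lower (2.98% of all genes), and 7 over the Covi-Ox diets (1.84%). The count over all diets was 12 without the 3 low arrays and 8 with the Y-linked mean in the model.

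**Figure D4:**
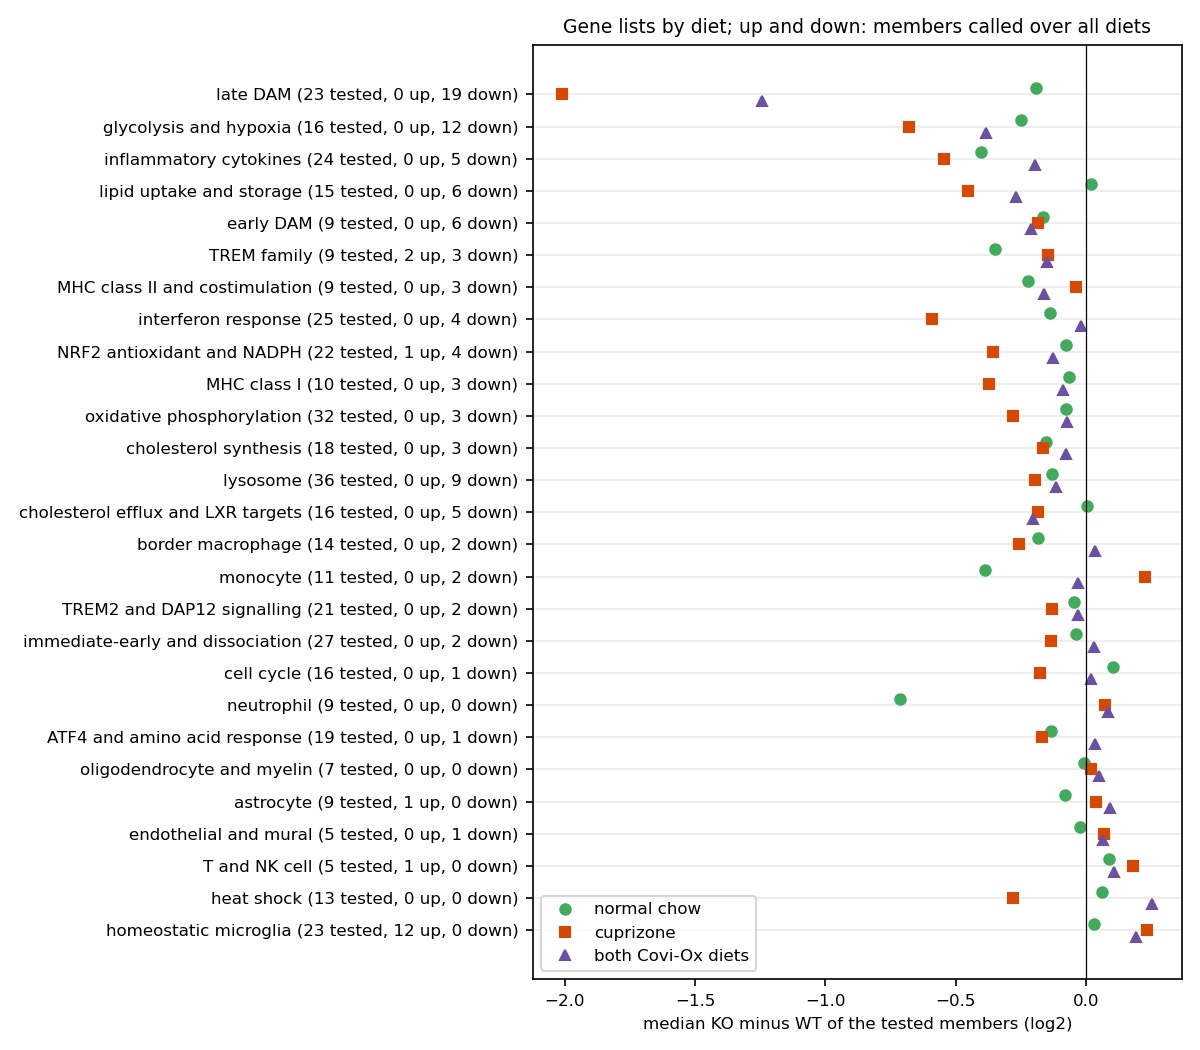
Median KO minus WT (log2, horizontal axis) of the tested members of each list with at least 5 tested genes, on normal chow, cuprizone and both Covi-Ox diets, with the members called over all diets beside the name. Late DAM genes lie farthest left on cuprizone (-2.01) and near the other lists on chow (-0.19), and homeostatic genes lie farthest right on cuprizone (0.24).

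Lists of lipid handling and degradation held fewer called members, where 4.69% of all genes were called lower. In lipid uptake and storage 6 of 15 were called lower, among them Olr1 (-1.33 ± 0.10), the fatty acid carrier Fabp5 (-1.33 ± 0.16) and the scavenger receptor Msr1 (-0.64 ± 0.18). In cholesterol efflux 5 of 16 were called lower, with Ch25h, which makes 25-hydroxycholesterol, at -1.62 ± 0.26, the apolipoproteins Apoc1 and Apoc4 at -1.16 ± 0.27 and -0.53 ± 0.16, and the ester hydrolase Nceh1 at -0.79 ± 0.12. In the lysosome list 9 of 36 were called lower, with the proton pump subunit Atp6v0d2 at -0.95 ± 0.13, cathepsin Z (Ctsz) at -0.38 ± 0.06, and the glycosidases Gla and Gaa at -0.39 ± 0.09 and -0.35 ± 0.07. Gla had the opposite sign on chow (0.55, adjusted p = 0.349) and on cuprizone (-0.84, adjusted p = 0.00700). Cholesterol synthesis, with 3 of 18 called lower (Msmo1, Insig1 and Hmgcs1, at -0.34, -0.23 and -0.23), had its most negative values on chow for Msmo1, Insig1 and Hmgcs1 (-0.56, -0.62 and -0.37), where none of them was called. For Msmo1 the chow value rests on KO control 2, with 111 and 50.2 in KO control against 106 and 114 in WT control. Without that array, Msmo1 (-0.20, adjusted p = 0.0991), Insig1 (-0.22, adjusted p = 0.0519) and Hmgcs1 (-0.23, adjusted p = 0.0570) were not called over all diets.

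Immune lists had 3 to 5 members called lower each over all diets, where 4.69% of all genes were called lower. Inflammatory cytokines had 5 of 24 called lower, including the prostaglandin synthase Ptgs2 (-1.32 ± 0.35), the chemokine Cxcl16 (-0.80 ± 0.05), the interleukin 1 antagonist Il1rn (-0.76 ± 0.08) and Ccl12 (-0.30 ± 0.07), and 9 lower and 1 higher without the 3 low arrays. The interferon response had 4 of 25 called lower (Usp18, Bst2, Stat2 and Ifih1, at -0.47 to -0.27), with a median of -0.59 on cuprizone and -0.02 over the Covi-Ox diets. MHC class I had 3 of 10 called lower (H2-M3, H2-Q4 and Tap1, at -0.77, -0.39 and -0.29), which all lie on chromosome 17, and MHC class II 3 of 9 (Cd74, H2-DMa and Cd86, at -0.38, -0.33 and -0.19). Oxidative phosphorylation had 3 of 32 called lower, Cycs (cytochrome c) at -0.31, Sdha at -0.20 and Atp5b at -0.16. In the NRF2 and NADPH list Nnt was the 1 of 22 called higher, and 4 were called lower, among them Sod2 (-0.39), Slc7a11 (-0.46) and Prdx1 (-0.29). With the Y-linked mean in the model 0 members of the interferon, MHC class II and oxidative phosphorylation lists were called.

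The signalling partners of Trem2 moved little. Of 21 tested genes of TREM2 and DAP12 signalling, Trem2 and the phosphatase Ptpn6 (-0.20 ± 0.05, adjusted p = 0.0220) were called, both lower. Over all genes 1.68% were called higher and 4.69% lower. The adaptor Tyrobp had 3972 to 4733 in KO and 4064 to 4805 in WT, a difference of -0.04 ± 0.04 (adjusted p = 0.594). Of the 9 tested genes of the TREM family list, Treml4 (0.69 ± 0.10) and Treml1 (0.17 ± 0.05) were called higher, and Trem2, Treml2 (-0.47 ± 0.12) and Clec5a, a DAP12-coupled lectin (-0.38 ± 0.09), lower. Treml4 had 29.7 to 51.8 in KO and 19.3 to 30.0 in WT, near the array medians, with a difference of 0.69 on each of chow, cuprizone and the Covi-Ox diets. Treml1, Treml2 and Treml4 lie in the same gene cluster as Trem2.

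Position on the chromosome was not used to choose the 18 genes, while the named genes next to Trem2, Mid1, Enpp5 and Glo1 were chosen by it. Of the 18 genes without overlap (0.152% of the 11830 tested), 4 lie on chromosome 17 (Trem2, Glo1, Enpp5 and Tnfrsf21). Chromosome 17 holds 608 tested genes, of which 48 were called over all diets (7.89%, against 6.37% of all genes). A further 2 of the 18 lie next to each other on the X chromosome, which holds 325 tested genes. In RefSeq's order 5 of the 20 tested genes nearest to Trem2 were called (25%): Treml4, Treml2 and Treml1, with Apobec2, a muscle cytidine deaminase family member (0.71 ± 0.10), and Rftn1, a raft protein (-0.34 ± 0.09). Between 11 and 25 genes away it was 2 of 30 (6.67%), and between 26 and 50 it was 2 of 50 (4%). Between 51 and 100 it was 17 of 100 (17%), and farther away 21 of 407 (5.16%), against 6.37% of all genes tested. The steps were set with earlier results known, and neighbouring genes are not independent.

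The stretch 51 to 100 genes from Trem2 holds large differences of both signs, and the genes named here were picked after their values were seen, except H2-T24, H2-M3, Enpp5 and Tnfrsf21. The olfactory receptor genes Olfr111 (-1.56), Olfr99 (-0.59) and Olfr110 (-0.52) and the class I gene H2-M3 (-0.77) were lower, and H2-T24 (0.88 ± 0.09, with 143 to 257 in KO and 90.5 to 161 in WT) was higher. Enpp4 (-0.41), beside Enpp5, was lower too. Glo1 lies farther out, and its neighbour Btbd9 (0.31) was also higher. On the other side of Trem2 and at a like distance, the cytokine gene Tnfsf9 (-1.10) and the phosphatase gene Ptprm (-0.72) were lower. Class I and olfactory receptor genes have close paralogs that share probes, so these values are uncertain.

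**Figure D5:**
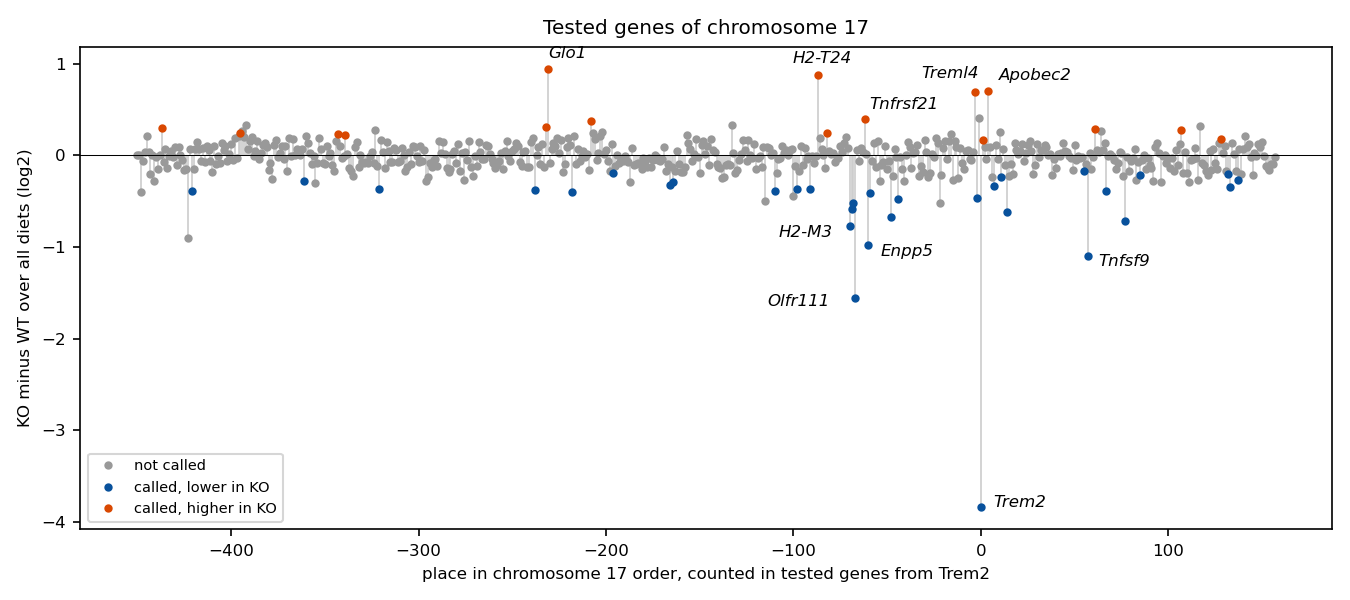
KO minus WT over all diets (log2, vertical axis) for the 608 tested genes of chromosome 17, placed by rank from Trem2 (horizontal axis, in tested genes). Called genes are blue where lower and orange where higher in KO; Trem2 stands at -3.84, and called genes of both signs with large differences lie to either side of it.

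A list of 6 genes known to differ between C57BL/6 substrains had 5 measured members, of which 3 passed the filter and were tested. Over all genes 6.37% were called. Nnt (0.86) and Wdfy1 (0.71 ± 0.08, with 111 to 181 in KO and 67.6 to 122 in WT) were higher, and Entpd4 (-0.44 ± 0.10) was lower, all called. Wdfy1 differed by 0.87 on chow, 0.61 on cuprizone and 0.69 over the Covi-Ox diets, and its arrays overlapped between genotypes. Among 4 tested genes of the list of Y-linked genes with Xist, Eif2s3y was called lower (-0.62 ± 0.12), with -1.96 on chow, -0.15 on cuprizone and -0.18 over the Covi-Ox diets. Xist lay at 4.01 to 4.63 on the log2 scale, below the filter.

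Markers of other cells held between 0 and 2 calls per list, where 1.68% of all genes were called higher and 4.69% lower. No neutrophil (of 9), oligodendrocyte (of 7) or heat shock (of 13) member was called over all diets by limma, and the summed neutrophil level was 881 to 3976 in KO and 951 to 4067 in WT, with a median difference of -0.71 on chow. The monocyte list had 2 of 11 called lower, Fn1 (-1.86 ± 0.26), which is also a gene of activated macrophages, and Ms4a6c (-0.54 ± 0.10), with summed levels of 728 to 1158 in KO and 733 to 2010 in WT. Its median was -0.045 over all diets, -0.39 on chow, 0.23 on cuprizone and -0.03 over the Covi-Ox diets. On cuprizone 1 member was called higher (0.82% of all genes) and 1 lower (2.98%). Over the Covi-Ox diets 1 was called higher and 1 lower, where 75 and 218 of all 11830 genes were called. In the difference of differences 1 was called more positive (0.0423%). Border macrophages had 2 of 14 called lower (Colec12 and Ms4a7, at -0.65 and -0.58; sums 1950 to 3810 in KO and 2262 to 3860 in WT). Endothelial Flt1 was lower (-1.04, 1 of 5), and astrocyte Slc39a12 (0.38, 1 of 9), the lymphoid gene Il7r (0.26, 1 of 5) and the B cell genes Bank1 and Cd79b (0.47 and 0.24, 2 of 4) were higher. Bank1 had 245 to 429 in KO and 108 to 410 in WT, and the summed B cell level was 1083 to 1358 in KO and 893 to 1367 in WT. The part of other cells in the results was not tested.

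Genes called on cuprizone were also read on the other diets, whose means do not enter the cuprizone comparison. The spread of those arrays did enter its error, and with only the arrays compared 39 genes were called on cuprizone. The arrays are thus not fully apart from the choice of genes. Of the 353 genes called lower on cuprizone (2.98%), 261 (73.9%) had the same sign on chow, against 64.3% of all genes that were lower on cuprizone, and 4 were called there. Over the Covi-Ox diets 333 of the 353 (94.3%) had the same sign, against 61.2% of all such genes, and 156 were called. The median difference of the 353 was -0.66 on cuprizone, -0.15 on chow and -0.33 over the Covi-Ox diets. Of the 97 genes called higher on cuprizone (0.82%), 61 (62.9%) had the same sign on chow, against 53.6% of all genes higher on cuprizone, and 81 (83.5%) over the Covi-Ox diets, against 69.1%. Without the 3 low arrays, 2 KO and 1 WT on cuprizone, 83 genes were called on cuprizone in place of 450; this leaves KO cuprizone 1 alone, assumed to vary like the other groups. In addition, leaving out 1 array gave 249 (KO cuprizone 2), 207 (KO cuprizone 3) and 273 (WT cuprizone 3). Of the cuprizone calls 21.6% were higher in KO, against 7.17% of 711 after centring and 36.5% of 408 after quantile normalization.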

How the data were processed

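RNA of sorted microglia was read on 22 Affymetrix MoGene 1.0 ST arrays. The authors deposited 1 intensity per probe set on a linear scale, made with RMA per the submitters' processing notes; the version is not given in the sources used here. RMA scales arrays to one another, so a change in total RNA per cell cannot be seen. The deposited intensities were turned into log2 values. Of 28098 probe sets, 21640 had 1 gene symbol, for 19937 genes, each taken by its probe set of highest mean. Tests covered the 11830 genes whose intensity passed the array's percentile 50 on 2 or more arrays. limma 3.58.1 in R 4.3.3 fitted 8 group means over all 22 arrays, with Benjamini-Hochberg adjustment over all genes and calls at adjusted p under 0.05; it was tested on simulated data. Genes were named if they had no overlap, ranked highest among calls, or were called members of a list; exceptions are stated. The members and lists were chosen with earlier results of these data known. Same-numbered arrays did not deviate together (correlations -0.227 to 0.254), so numbers were not used as pairs. Alternatives changed the filter, scaling, probe set rule, model, threshold and arrays used.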

Additional observations from a re-analysis of the deposited data

Results flagged for a closer look

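The genotype difference itself depended on cuprizone, by the direct test of the difference of differences (limma, adjusted p under 0.05), in the genes named here. KO minus WT on cuprizone less KO minus WT on chow was more negative in Itgax (-2.88), Mmp12 (-2.82), Bhlhe40 (-2.77), Gpnmb (-2.77), Lpl (-2.56), Axl (-2.19), Capg (-2.15), Fam20c (-2.10), Lgals3 (-1.98), Clec7a (-1.85), Csf1 (-1.85) and Igf1 (-1.78), all on the log2 scale. It was more positive in Eif2s3y (1.81), Clec12a (1.29), Zranb1 (1.17), Csmd3 (0.92) and Maml2 (0.83). The calls of Fam20c and Lgals3 held in each of 35 alternatives, while those of Clec12a and Csmd3 were lost in 25 of 35.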

How the results depend on the processing

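Over all diets the 754 calls became 322 at adjusted p under 0.01, 257 with only genotype in the model, 402 without the cuprizone diet, 36 without the Covi-Ox diets and 170 with the Y-linked mean as covariate. On cuprizone the 450 became 711 after centring, 83 without the 3 arrays low in immediate-early genes, 147 at 0.01 and 39 with only the arrays compared. On chow the 8 became 5 with array weights, 5 at 0.01 and 5 with only the arrays compared. Over the Covi-Ox diets the 293 became 588 with array weights, 177 at 0.01 and 483 with only the arrays compared. For the dependence on cuprizone the 27 became 12 with array weights, 7 at 0.01, 4 with only the arrays compared, 851 with the sets read by title and 165 by the other fields; 18.5% were higher, against 4.35% after centring. Leaving out 1 array gave 439 to 1347 over all diets, 5 to 701 on chow, 207 to 542 on cuprizone, 218 to 370 over the Covi-Ox diets, 6 to 265 for the dependence and 18 to 23 for genes without overlap. Array numbers as a replicate block gave 671, 7, 402, 272 and 20 calls for the same comparisons, from all diets to the dependence. Counts of genes without overlap under an alternative, including that for leaving out 1 array, took only genes also called in the refitted average. They were 16 under quantile normalization (15 of the 18 among them), 48 without the control diet (18) and 30 without the cuprizone diet (17). They were 20 without the Covi-Ox diets (11) and 15 with the Y-linked mean (15). Leaving out arrays or adding a covariate cannot make separated arrays overlap, so members of the 18 missing there had lost the call. The causes were not tested. Of 5501 values of named genes under an alternative, 4656 kept direction and call, 844 lost the call, 1 gained it and 0 reversed. The alternatives for gene lists were chosen after seeing the data. Signals near the array medians limit the precision of low genes.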

Other observations

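A few receptors outside the gene groups above were higher in KO. Gpr165, an orphan receptor, had 803 to 1988 in KO and 360 to 1390 in WT (0.70 ± 0.11, adjusted p = 0.000238), with differences of 0.21 on chow, 0.84 on cuprizone and 0.88 over the Covi-Ox diets. Klrd1, the CD94 chain of natural killer receptors, had 45.4 to 110 in KO and 17.1 to 75.3 in WT (0.79 ± 0.16, adjusted p = 0.00387), with 0.44, 0.65 and 1.03 on the same diets. The ranges of the genotypes overlapped in both genes.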
